A study of Mus musculus with 6 samples.

Results

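Axon guidance ligands and receptors were described in the urogenital ridge of Wt1 knockout and wild-type mouse embryos, across all probes whose platform annotation gave 1 gene symbol beginning with Sema, Plxn, Epha, Ephb, Efna, Efnb, Slit, Robo, Ntn or Unc5, or equal to Dcc, Nrp1 or Nrp2, with the Slitrk genes left out. The rule took in 73 of the 20289 probes on the array, which stood for 64 genes. It used symbols alone and no measured value. Knockout embryos (KO) were of the Mf1 strain and homozygous for a deletion of the Wilms tumour gene Wt1, and wild-type embryos (WT) were Mf1 without the deletion. Both genotypes were collected at E11.5 with 11 to 12 tail somites, and 3 single-colour CodeLink arrays were hybridised for each, every one labelled as the ridges of 5 embryos, 4 female and 1 male. The deletion was present throughout the embryo, so the arrays do not separate cells that would normally express Wt1 from their neighbours. The labels leave unsaid whether each array had its own pool of embryos, so the p-values reflect array-to-array spread that may be purely technical.

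Guidance molecules steer growing axons and migrating cells by attraction and repulsion. Semaphorins signal through plexins, with neuropilins as co-receptors of most secreted class 3 semaphorins, and neuropilins also bind vascular endothelial growth factors. Ephrins sit on the surface of a neighbouring cell and bind Eph receptor tyrosine kinases, the A ephrins through a lipid anchor and the B ephrins as transmembrane proteins. Slits act through Robo receptors, and netrins act through Dcc and the Unc5 receptors. The same proteins pattern blood vessels and the forming kidney, where Slit2 and Robo2 limit the site at which the ureteric bud arises in the mouse.

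Values were deposited as linear spot intensities, with array medians from 0.956 to 0.966 and no detection flags. A probe was tested if its mean lay above the 25th percentile of all probes, an intensity of 0.217, and it was called if limma's moderated test gave an adjusted p under 0.05 over all 15062 tested probes. Changes are log2 KO minus WT, errors of single changes are standard errors, and means carry the SD of 3 arrays. Wt1 itself had intensities of 14.3, 15.7 and 14.2 on the KO arrays, against 44.1, 43.6 and 39.1 on the WT arrays on its brighter probe (log2 change -1.52 ± 0.08, adjusted p = 1.13e-07). Whether that probe lies inside the deleted stretch was not known here, so its signal checks the labels only in part. The ridge markers Lhx9 and Amhr2 had signals of 4.02 to 4.46 and 28.7 to 32.1 on the WT arrays.

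Guidance genes moved in both directions, and as a whole they were called about as often as other genes. Of the 64 genes, each represented by its brightest probe, 52 were tested, and 10 were higher in KO (19.2%) and 9 lower (17.3%). Over all tested probes 24.1% were called higher and 17.2% lower, so the members' shares lay near or below the background. Under cyclic loess normalization 8 members were higher and 11 lower, beside 2970 and 3028 of all tested probes, against 3625 and 2596 on the values as deposited. Quantile normalization gave 3043 and 2954 of all tested probes, so the excess of higher calls among them was not seen under either scaling. Among member probes, 11 of 57 were called higher and 9 lower. The KO and WT arrays did not overlap at 26 of the 52 genes, beside 52.6% of all tested probes. The median log2 change of the tested members was 0.16, against 0.09 for all tested probes. Among the called genes 5 in each direction differed by 1.5-fold or more, and such calls were made as higher at 6.83% and as lower at 8.68% of all tested probes. The 5 higher genes were all receptors (Epha3, Nrp2, Epha8, Epha4 and Epha7) and the 5 lower genes all ligands (Sema6a, Sema6d, Efna1, Efna4 and Efna2). That split depends on the 1.5-fold limit. The receptor Nrp1 was called lower and just missed the limit at 1.48-fold, while Epha7 just passed it at 1.51-fold. The call of Sema6a was lost in some alternative settings. Across the families, 2 of 22 tested ligand genes were called higher and 6 lower, while 7 of 28 tested receptor genes were called higher and 3 lower. Whether ligands and receptors differ was not tested.

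**Figure D1:**
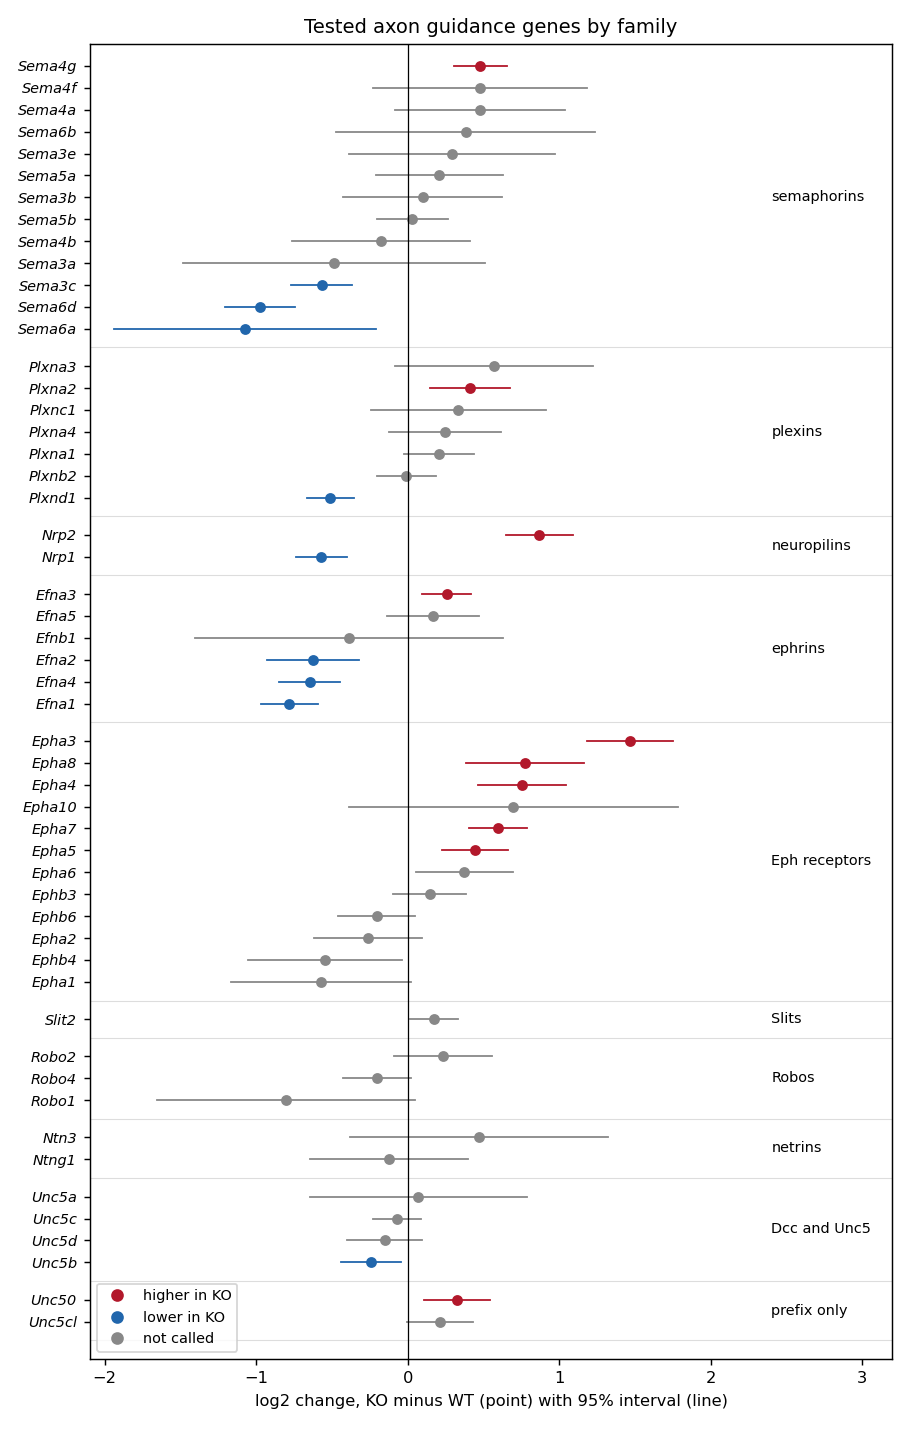
Log2 change (KO minus WT) of each of the 52 tested genes with its 95% interval, grouped by family. Red points are the 10 genes called higher in KO, blue points the 9 called lower and grey points those not called. The largest increase is that of Epha3 at 1.47, and among the A-type Eph receptors and ephrins the called points lie mostly on opposite sides of 0.

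The EphA receptors and ephrin-A ligands held most of the larger changes. Of 9 tested EphA receptor genes 5 were higher in KO and none was called lower, whereas 3 of 5 ephrin-A genes were lower and 1 was higher, beside 24.1% higher and 17.2% lower over all tested probes. The family medians were 0.60 for EphA and -0.62 for ephrin-A genes on the log2 scale, against 0.09 over all tested probes, and the EphA median was 0.44 with the dim Epha10 set at its bound. In RNA from a whole tissue, fewer cells of a type and less RNA per cell cannot be told apart.

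Epha3, a receptor for ephrin-A ligands found on motor axons and mesenchyme, gave 1.84, 1.91 and 1.87 on the KO arrays, against 0.569, 0.741 and 0.739 on the WT arrays. All KO values lay above all WT values, a 2.76-fold increase (log2 change 1.47 ± 0.13, adjusted p = 6.76e-06). Its second probe was also called higher, at 1.52-fold (1.17 ± 0.17 in KO and 0.766 ± 0.0127 in WT, adjusted p = 0.00451). Both probes thus gave the same direction with different sizes. Epha4, which binds ephrins of both classes and guides motor and crest-derived cells, had 1.17, 1.33 and 1.52 on the KO arrays, against 0.764, 0.841 and 0.759 on the WT arrays. The groups did not overlap, and the increase was 1.69-fold (log2 change 0.76 ± 0.13, adjusted p = 0.000775). Epha8 had 1.11, 1.25 and 1.12 on the KO arrays, against 0.861, 0.518 and 0.704 on the WT arrays. It was 1.71-fold higher without overlap, though the WT arrays were more widely spread (log2 change 0.77 ± 0.18, adjusted p = 0.00453).

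Epha7, a receptor broadly used in the embryonic nervous system and trunk, had 34.3, 42.8 and 39.0 on the KO arrays, against 25.9, 26.7 and 24.0 on the WT arrays. The increase was 1.51-fold with no overlap (log2 change 0.60 ± 0.09, adjusted p = 0.000252). It stayed called but was smaller under quantile and cyclic loess normalization, with log2 changes of 0.40 and 0.42, which are under 1.5-fold. Epha5, known for mapping of axons in the brain, was 1.36-fold higher (1.68 ± 0.108 in KO and 1.23 ± 0.0319 in WT, adjusted p = 0.00411). Epha6 was not called, with 5.43, 3.68 and 3.42 on the KO arrays, against 2.996, 3.42 and 3.06 on the WT arrays. The groups overlapped near 3.42, and most of its difference lay on KO array 1. Without KO array 2 or 3, Epha6 passed the threshold, at adjusted p = 0.0459 and 0.0192, as it did under quantile normalization (adjusted p = 0.0485). Epha1 and Epha2, receptors known mainly from epithelia, had log2 changes of -0.57 ± 0.27 and -0.26 ± 0.16 and were not called (adjusted p = 0.113 and 0.216). Their 95% intervals, -1.16 to 0.02 and -0.62 to 0.09, leave room for a decrease. All KO values of Epha1 lay below all its WT values. Epha1 was called lower under cyclic loess normalization (log2 change -0.73, adjusted p = 0.0480) and without an intensity trend (adjusted p = 0.0399). Epha10 was not called (adjusted p = 0.283), and its WT mean lay under the limit for dim probes. With dim WT values set at that limit it was 1.25-fold higher, and the 95% interval of its log2 change was -0.39 to 1.78.

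Among the ligands, Efna1, an ephrin of endothelium and epithelium, had 2.49, 2.33 and 2.25 on the KO arrays, against 3.80, 4.30 and 4.05 on the WT arrays. It was 1.72-fold lower in KO, with the groups well apart (log2 change -0.78 ± 0.09, adjusted p = 3.01e-05). Efna4 had 2.58, 2.15 and 2.22 on the KO arrays, against 3.75, 3.58 and 3.53 on the WT arrays. The decrease was 1.57-fold (log2 change -0.65 ± 0.09, adjusted p = 0.000182). Efna2 had 0.661, 0.860 and 0.831 on the KO arrays, against 1.27, 1.18 and 1.16 on the WT arrays. It was 1.54-fold lower, again with no overlap (log2 change -0.62 ± 0.14, adjusted p = 0.00347). Efna3 went the other way, with 9.63, 9.62 and 10.3 on the KO arrays, against 7.89, 8.10 and 8.71 on the WT arrays. The increase was 1.20-fold (log2 change 0.26 ± 0.07, adjusted p = 0.0150), and it missed the threshold without WT array 1, WT array 2 or KO array 3 (adjusted p = 0.0799, 0.0650 and 0.0667). With all arrays it missed the threshold under cyclic loess normalization (adjusted p = 0.0509). Efna5 was not called (log2 change 0.17 ± 0.14).

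**Figure D2:**
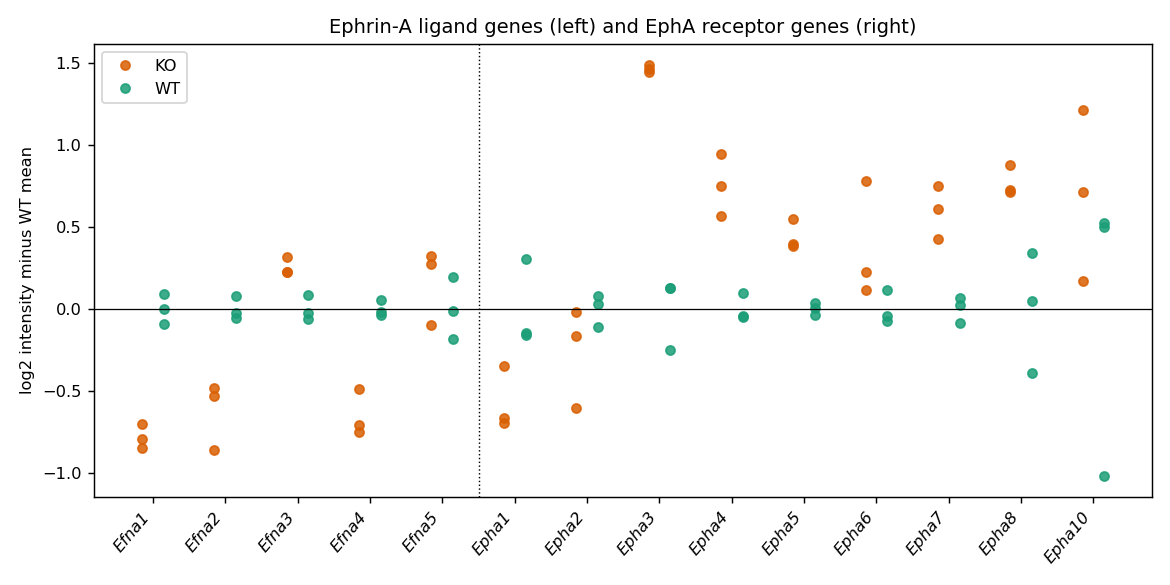
Log2 intensity on each array minus the WT mean of that gene, for the 5 ephrin-A and 9 EphA receptor genes tested. KO points are orange and stand left of the green WT points. Efna1, Efna2, Efna4, Epha1 and Epha2 lie below 0 on all 3 KO arrays. Efna3, Epha3, Epha4, Epha5, Epha6, Epha7, Epha8 and Epha10 lie above 0 on all 3, and Efna5 lies on both sides.

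Efna1, Efna3 and Efna4 are near neighbours on mouse chromosome 3. In the RefSeq gene table of assembly GRCm38.p6 they follow each other in that order on the same strand, and between them are only long non-coding RNA genes, none of which had a probe. The middle gene was higher in KO and both outer genes were lower. The nearest measured protein-coding genes outside the group were not called, with log2 changes of -0.13 ± 0.11 for Slc50a1 beside Efna1 and 0.17 ± 0.13 for Adam15 beside Efna4. The promoter windows of the 3 genes, from RefSeq and covering 250 bases before to 50 after the start, are shown because the neighbours moved in opposite directions. Capitals mark a match to GCGTGGGCG or GCGGGGGCG on either strand, boxes that WT1 and the related EGR factors are known to bind. The windows are Efna1 at chr3:89280902-89281201, Efna3 at chr3:89322890-89323189 and Efna4 at chr3:89337979-89338278, all on the minus strand.
Efna1: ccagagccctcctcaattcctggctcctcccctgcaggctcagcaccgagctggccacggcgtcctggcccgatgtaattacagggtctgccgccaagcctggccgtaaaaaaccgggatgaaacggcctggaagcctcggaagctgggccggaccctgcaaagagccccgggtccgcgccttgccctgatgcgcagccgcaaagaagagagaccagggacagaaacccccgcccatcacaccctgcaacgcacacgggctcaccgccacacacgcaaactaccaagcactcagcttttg
Efna3: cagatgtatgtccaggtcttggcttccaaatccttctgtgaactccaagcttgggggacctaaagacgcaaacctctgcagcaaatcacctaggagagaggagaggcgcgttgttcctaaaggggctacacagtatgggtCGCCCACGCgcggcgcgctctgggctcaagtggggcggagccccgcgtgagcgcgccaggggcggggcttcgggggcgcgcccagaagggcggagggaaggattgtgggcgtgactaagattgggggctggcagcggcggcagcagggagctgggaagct
Efna4: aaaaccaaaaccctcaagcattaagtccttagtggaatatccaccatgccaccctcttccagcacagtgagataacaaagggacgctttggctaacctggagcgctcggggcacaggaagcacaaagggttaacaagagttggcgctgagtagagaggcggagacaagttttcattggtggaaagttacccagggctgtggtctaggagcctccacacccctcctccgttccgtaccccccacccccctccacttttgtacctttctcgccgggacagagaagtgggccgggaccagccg
Efna3 held 1 match, on the strand opposite to the gene and starting at base 141 of the window, and neither printed neighbour held one. Efna1 and Efna3 have 2 start sites each in the table, and the windows of their other starts held no match.

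Of the 64 genes, 55 had promoter windows in the RefSeq table, 70 windows in all. GCGGGGGCG was found in 7 of them (10%) and in 2.91% of all 32851 windows, and GCGTGGGCG in 2 (2.86%), against 0.612% of all windows. A further WT1 box, GCGTGGGAG, was in none of the member windows and in 0.472% of all windows. None of the 3 motifs is a reverse complement of another. These counts are of windows holding a match on either strand, however many matches they held. In the printed windows every match was marked, overlapping ones included. By call, 4 of 10 genes higher in KO had a match, 0 of 8 lower genes, 5 of 29 genes not called and 0 of 8 untested genes. The uncalled genes with a match were Epha1, Plxnb2, Sema5a, Sema6b and Slit2, whose windows are not printed. Matches per gene and by call were not counted over all genes, so these counts have no background beside them. Windows rich in G and C hold such boxes more often, and the window of Epha8 was 84.3% G and C. Base composition was not matched between the sets, and the differences were not tested. The matches in the other higher genes are shown for Epha8 at chr4:136956767-136957066 on the minus strand, and for Sema4g at chr19:44989094-44989393 and Plxna2 at chr1:194619579-194619878 on the plus strand.
Epha8: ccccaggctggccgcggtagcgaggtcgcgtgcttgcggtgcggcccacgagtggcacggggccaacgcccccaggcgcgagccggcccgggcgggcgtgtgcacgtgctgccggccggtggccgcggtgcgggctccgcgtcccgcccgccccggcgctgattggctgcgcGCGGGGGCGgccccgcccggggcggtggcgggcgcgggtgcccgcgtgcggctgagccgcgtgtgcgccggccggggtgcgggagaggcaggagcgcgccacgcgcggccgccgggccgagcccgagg
Sema4g: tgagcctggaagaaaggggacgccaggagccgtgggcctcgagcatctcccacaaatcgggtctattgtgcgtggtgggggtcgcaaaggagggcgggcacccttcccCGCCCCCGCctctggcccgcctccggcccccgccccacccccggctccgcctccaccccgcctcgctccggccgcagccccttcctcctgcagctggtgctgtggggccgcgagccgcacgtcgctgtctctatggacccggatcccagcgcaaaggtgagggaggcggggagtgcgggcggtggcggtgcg
Plxna2: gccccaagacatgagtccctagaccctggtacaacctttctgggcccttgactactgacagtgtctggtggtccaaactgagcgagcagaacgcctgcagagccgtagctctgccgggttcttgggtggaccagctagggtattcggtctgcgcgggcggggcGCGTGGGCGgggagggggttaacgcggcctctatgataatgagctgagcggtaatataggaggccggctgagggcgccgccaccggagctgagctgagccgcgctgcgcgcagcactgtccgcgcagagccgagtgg
A match is a run of letters in the reference sequence and no measure of binding.

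The B-type members showed no called change. Of 3 tested EphB receptor genes, Ephb3 had a log2 change of 0.15 ± 0.11 and Ephb6 one of -0.21 ± 0.12. Ephb4, the receptor of venous endothelium, had 0.334, 0.473 and 0.370 on the KO arrays, against 0.477, 0.572 and 0.665 on the WT arrays. These values were dim and all KO values lay below the WT values, by a narrow margin (log2 change -0.54 ± 0.23, adjusted p = 0.0818), and it passed as lower without KO array 2 (adjusted p = 0.0419) and under cyclic loess normalization (adjusted p = 0.0431). Efnb1 had a KO mean under the limit for dim probes and was not called (at least 1.06-fold lower, adjusted p = 0.533), and Efnb2, the ligand of arterial endothelium, was too dim to test.

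The semaphorins were split, with 3 of 13 tested genes lower in KO and 1 higher. Sema6d, a transmembrane semaphorin that signals through Plxna1, had 3.84, 2.97 and 3.06 on the KO arrays, against 6.34, 6.04 and 6.92 on the WT arrays. It was 1.97-fold lower with a wide gap between the groups (log2 change -0.98 ± 0.10, adjusted p = 2.59e-05), the smallest adjusted p of any semaphorin. Sema6a, its relative that binds Plxna2 and Plxna4, was dim, with 0.183, 0.145 and 0.190 on the KO arrays, against 0.491, 0.273 and 0.350 on the WT arrays. The KO signal lay under the limit for dim probes, so the decrease is given as at least 1.66-fold against that limit (adjusted p = 0.0475). That call was lost without WT array 2 or 3 or KO array 2 or 3, where the adjusted p was 0.0608, 0.121, 0.0783 and 0.0516, and without WT array 1 the probe fell below the limit for testing.

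Sema3c, a secreted semaphorin known for its part in the cardiac outflow tract, had 6.08, 7.42 and 6.83 on the KO arrays, against 9.95, 9.26 and 10.9 on the WT arrays. It was 1.48-fold lower without overlap (log2 change -0.57 ± 0.09, adjusted p = 0.000474). A second, dimmer Sema3c probe was not called (log2 change -0.25 ± 0.18). Sema4g, a transmembrane semaphorin, had 14.5, 13.4 and 13.04 on the KO arrays, against 9.09, 9.88 and 10.4 on the WT arrays. The increase was 1.40-fold (log2 change 0.48 ± 0.08, adjusted p = 0.000491), and its second probe did not pass, at 0.18 ± 0.07 with adjusted p = 0.0723. The groups did not overlap on either Sema4g probe. The 9 semaphorin genes not called were mostly dim: Sema3a, the classical axon repellent, gave 0.155 to 0.378 on the KO arrays, against 0.229 to 0.388 on the WT arrays. Sema5b, at 1.48 ± 0.148 in KO and 1.44 ± 0.0475 in WT, had the narrowest interval among them, -0.20 to 0.27.

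The neuropilins changed in opposite directions. Nrp1, co-receptor for Sema3a and for VEGF-A, had 5.23, 5.97 and 5.60 on the KO arrays, against 8.31, 8.47 and 8.14 on the WT arrays. Nrp2, co-receptor for Sema3f and for VEGF-C, had 5.65, 7.27 and 6.71 on the KO arrays, against 3.52, 3.36 and 3.82 on the WT arrays. Nrp1 was thus 1.48-fold lower (log2 change -0.57 ± 0.08, adjusted p = 0.000122) and Nrp2 1.83-fold higher (log2 change 0.87 ± 0.10, adjusted p = 4.21e-05), with no overlap for either gene. The 95% intervals of the changes, -0.74 to -0.40 for Nrp1 and 0.65 to 1.09 for Nrp2, lie on opposite sides of 0. Both calls held in all 14 alternative settings.

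Of 7 tested plexin genes, the receptors of semaphorins, 1 was lower and 1 higher. Plxnd1, the Sema3e receptor of endothelium, had 5.81, 6.06 and 6.35 on the KO arrays, against 8.77, 8.63 and 8.54 on the WT arrays. Its decrease was 1.42-fold and the arrays of each genotype lay close together (log2 change -0.51 ± 0.07, adjusted p = 0.000173). Plxna2 had 2.15, 2.49 and 2.68 on the KO arrays, against 1.95, 1.56 and 2.01 on the WT arrays. This 1.33-fold increase (log2 change 0.41 ± 0.12, adjusted p = 0.0172) was lost without WT array 2 or KO array 3, at adjusted p = 0.0900 and 0.0649. With all arrays it was lost without an intensity trend (adjusted p = 0.0606). Plxnb2, a receptor for class 4 semaphorins, had 33.9, 40.9 and 38.0 on the KO arrays, against 40.5, 38.5 and 34.5 on the WT arrays. The ranges overlapped throughout, and the 95% interval of its change was -0.20 to 0.18. Plxnb2 was called lower under quantile and cyclic loess normalization, with log2 changes of -0.24 and -0.20. The plexins not called had log2 changes from -0.01 to 0.57.

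**Figure D3:**
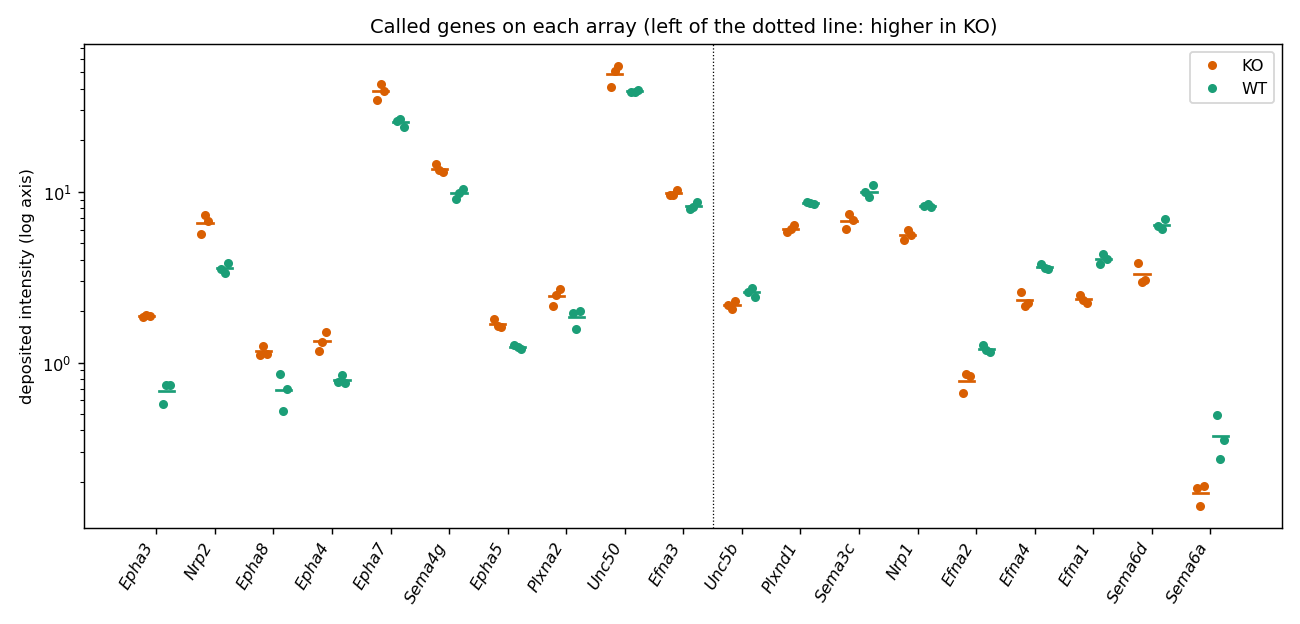
Deposited intensity of each of the 19 called genes on every array, on a log axis, with KO points (orange) left of WT points (green) and a bar at the mean of each genotype. Genes left of the dotted line were higher in KO, ordered by log2 change; for every gene shown the KO points and the WT points do not overlap.

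The Slit and Robo genes showed no called change. Slit2 had 20.0, 21.5 and 22.0 on the KO arrays, against 19.5, 18.8 and 18.0 on the WT arrays on its brighter probe. All KO values lay above the WT values, by a small amount (log2 change 0.17 ± 0.07, adjusted p = 0.0744), and without KO array 1 it passed as higher at adjusted p = 0.00884. The dimmer Slit2 probe had a log2 change of -0.15 ± 0.15. Robo2, its receptor in the forming kidney, had 1.32, 1.10 and 1.43 on the KO arrays, against 1.05, 1.31 and 0.942 on the WT arrays. Those ranges overlapped (log2 change 0.23 ± 0.15, adjusted p = 0.232). Robo1 was dim, with 0.254, 0.221 and 0.135 on the KO arrays, against 0.294, 0.393 and 0.346 on the WT arrays (at least 1.49-fold lower against the limit for dim probes, adjusted p = 0.122, not called). Robo4, the endothelial Robo, had 1.62, 1.97 and 1.66 on the KO arrays, against 1.99, 1.94 and 2.08 on the WT arrays. It was not called (adjusted p = 0.133) but passed as lower without KO array 2 (adjusted p = 0.0370).

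The netrin system was mostly at or near the limit of the arrays. Of 5 netrin genes 2 were tested and neither was called, the netrin-G gene Ntng1 with a log2 change of -0.12 ± 0.24 and Ntn3 with 0.47 ± 0.39. Ntn1 itself, the founding netrin, gave 0.0818, 0.169 and 0.174 on the KO arrays, against 0.0795, 0.00109 and 0.0479 on the WT arrays, and was not tested. Its receptor gene Dcc gave at most 0.288 on the KO arrays, against at most 0.196 on the WT arrays, and was not tested either. Unc5c, a repulsive netrin receptor, had 6.86, 7.11 and 7.14 on the KO arrays, against 7.06, 7.72 and 7.39 on the WT arrays. Its ranges overlapped and its 95% interval was narrow, -0.23 to 0.09. Unc5b, a netrin receptor also of endothelium, had 2.17, 2.07 and 2.30 on the KO arrays, against 2.60, 2.73 and 2.42 on the WT arrays. The KO values were all lower, by 1.18-fold, and the call was at the threshold (adjusted p = 0.0496). It was lost in 11 of 14 alternative settings, among them the omission of WT array 1, 2 or 3 or KO array 2 or 3 (adjusted p = 0.134, 0.188, 0.0543, 0.121 and 0.0504). Unc5a and Unc5d were not called.

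The prefix Unc5 also took in Unc50 and Unc5cl, which are not known as netrin receptors. Unc50, a membrane protein gene whose worm counterpart acts in the trafficking of acetylcholine receptors, had 40.9, 51.3 and 54.6 on the KO arrays, against 38.5, 38.5 and 39.3 on the WT arrays. It was called higher at 1.25-fold (adjusted p = 0.0199). The call was lost in 8 of 14 settings, and the change was 0.08 on the log2 scale under quantile normalization. Omitting WT array 1, 2 or 3 or KO array 2 or 3 gave adjusted p = 0.0642, 0.0659, 0.0565, 0.0637 and 0.0934. Unc5cl was not called (log2 change 0.21 ± 0.10). Without these genes 9 of 50 tested members were higher in KO and 9 lower.

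The 12 untested genes were Sema3d, Sema3f, Sema4d, Sema6c, Sema7a, Plxnb3, Efnb2, Slit1, Ntn1, Ntn4, Ntng2 and Dcc, and their values ran from -0.0315 to 0.335 over the 6 arrays. The filter on dim probes left these genes out, so no difference was tested, and the transcripts cannot be called absent. All KO values lay above all WT values for Sema7a, Ntn1 and Ntng2, and the genotypes overlapped for the other untested genes. Sema7a, Ntn1 and Ntng2 each had WT values under 0.0811, the level to which low intensities were raised. Among all tested probes 52.6% had no overlap, and the share among untested probes was not counted. Of the 9 genes with more than 1 probe, only Epha3 was called on more than 1, and both calls were higher in KO. Sema3c and Sema4g were called on their brighter probe and not on the other, and Plxna4 and Slit2 were called on neither. Epha5, Slit1, Ntng1 and Unc5d had a probe too dim to test, so agreement of calls could not be judged for them.

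**Figure D4:**
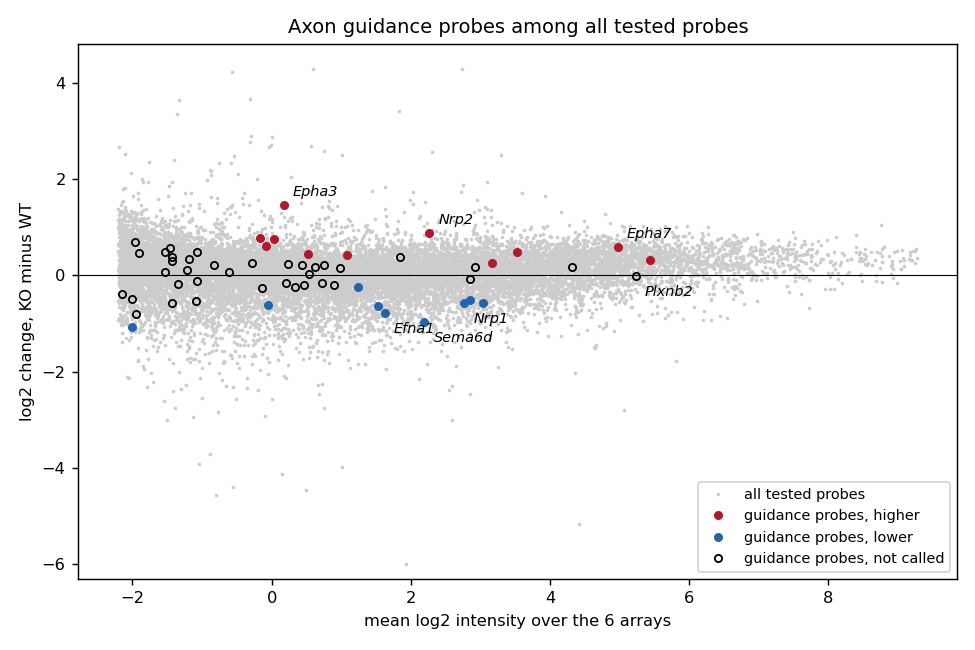
Log2 change (KO minus WT) against mean log2 intensity for all 15062 tested probes in grey, with the 57 tested guidance probes on top, red where called higher, blue where called lower and open where not called. The guidance probes lie between -1.07 and 1.47 and inside the cloud of all probes, whose extremes reach -6.00 and 4.28.

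Genes that work with these ligands and receptors were taken from a list of 64 cofactors and effectors, of which 42 were tested. Of these, 13 were higher in KO and 13 lower, which is 31.0% each way beside 24.1% higher and 17.2% lower over all tested probes. Their median log2 change was -0.01, against 0.09 for all tested probes. The largest changes were decreases. Cfl1, the actin-severing cofilin that lies downstream of semaphorin and Eph signals, had 15.9, 13.6 and 14.9 on the KO arrays, against 39.2, 39.6 and 45.7 on the WT arrays (log2 change -1.48 ± 0.09, adjusted p = 3.16e-07). Cxcl12, a chemokine that also guides axons, had 1.42, 1.79 and 1.86 on the KO arrays, against 4.36, 4.65 and 4.25 on the WT arrays (log2 change -1.40 ± 0.11, adjusted p = 2.64e-06). Both were well separated between the genotypes. Tiam1, a Rac activator linked to ephrin and Eph signalling, had a log2 change of -1.13 ± 0.20 (adjusted p = 0.000928).

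Partners of the neuropilins and of Unc5 receptors were named from that list after their values were seen. Vegfc, a ligand of Nrp2, was higher in KO, with 6.74, 6.07 and 5.53 on the KO arrays, against 3.51, 3.18 and 3.59 on the WT arrays (log2 change 0.83 ± 0.09). Vegfa, a ligand of Nrp1, was lower, with 5.23, 3.35 and 3.69 on the KO arrays, against 5.44, 5.63 and 5.67 on the WT arrays (log2 change -0.48 ± 0.14, adjusted p = 0.0144). VEGF-A also binds Nrp2, and Sema3c is a neuropilin ligand too. Flrt3, a ligand of Unc5 receptors, was higher (log2 change 0.82 ± 0.09) and Neo1, the Dcc relative that binds netrins, was lower (log2 change -0.82 ± 0.18, adjusted p = 0.00381). Crmp1, a cytoplasmic mediator of Sema3a signals in neurons, was higher (log2 change 0.82 ± 0.09).

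Cell type markers moved on the same arrays, and their counts stand beside 24.1% called higher and 17.2% called lower over all tested probes. The lists were chosen with earlier results of these data known, so their counts and sums are descriptions only. Of 14 tested neuron markers 10 were higher in KO and none lower, with a summed intensity of 87.3 to 92.9 on the KO arrays, against 55.6 to 56.9 on the WT arrays. Neural tube progenitor markers were higher for 5 of 11 (sum 75.8 to 78.9 in KO and 39.5 to 41.9 in WT), and neural crest and sympathetic markers for 7 of 12 (55.7 to 57.2 in KO and 41.9 to 43.1 in WT), with none lower in either list. Skeletal muscle and somite markers were higher for 11 of 18 and lower for 1 (91.2 to 99.7 in KO and 72.9 to 75.3 in WT). Endothelial markers, which include Robo4, were lower for 6 of 12 and higher for 1 (103 to 107 in KO and 110 to 112 in WT). Guidance genes known from endothelium were not uniform, with Nrp1, Plxnd1, Efna1 and Unc5b lower, Nrp2 higher, and Robo4 and Ephb4 not called. Coelomic and gonadal markers were lower for 10 of 15 with none higher (68.6 to 69.1 in KO and 147 to 156 in WT). That count and sum include the deleted gene Wt1 itself, at 14.2 to 15.7 in KO and 39.1 to 44.1 in WT. Nephric markers were higher for 3 of 10 and lower for 3 (38.9 to 41.8 in KO and 36.0 to 38.0 in WT). The lists share genes, so they are not separate readouts. Pax3 and Pax7 are listed for neural tube and muscle, Ret for crest and nephric cells, and Emx2 and Krt8 for coelomic and nephric cells. The list of cofactors and effectors shares Gap43 with the neuron list, and Kdr and Flt1 with the endothelial list. The part of these cell types in the guidance gene changes was not tested. Markers too dim to test were Map2 and Mapt for neurons, Sox2, Neurog2 and Olig2 for neural tube, Hand2 for sympathetic cells, Cdh5 and Flt1 for endothelium, Myog for muscle, Cbx2 and Msln for gonad and mesothelium, and Pax8 and Sim1 for nephric cells.

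**Figure D5:**
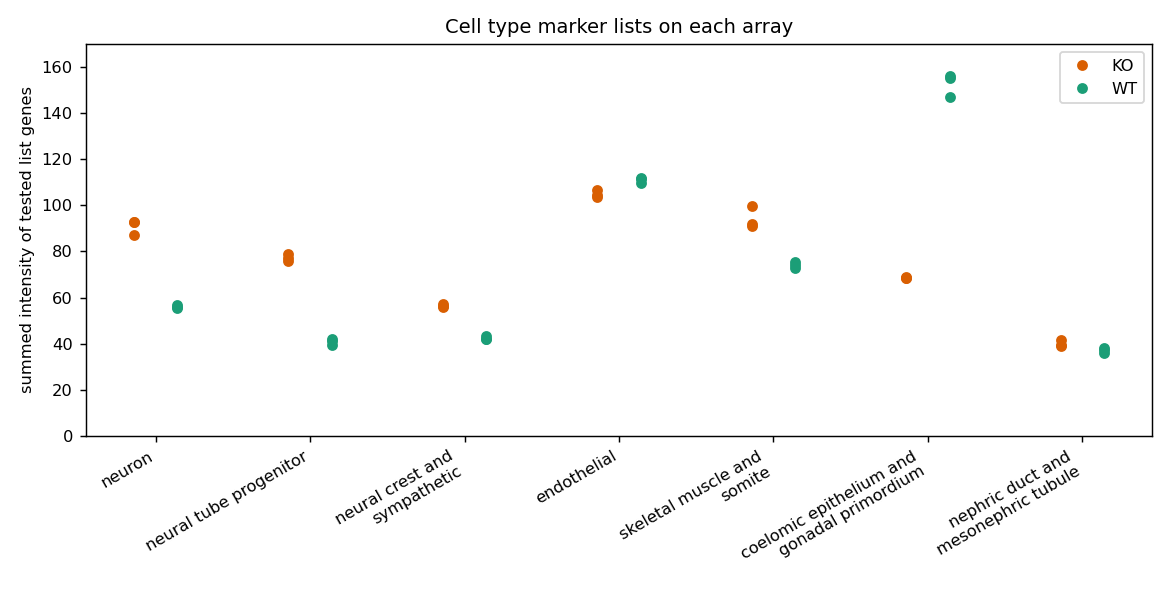
Summed deposited intensity of the tested genes of each marker list on each array, KO (orange) left of WT (green), on a linear axis from 0. The neuron, neural tube, crest, muscle and nephric sums are higher on all 3 KO arrays than on any WT array. The endothelial sum and the coelomic and gonadal sum are lower. For the nephric and endothelial lists the gap is narrow.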

How the data were processed

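Biotin-labelled total RNA of urogenital ridges was measured on CodeLink arrays, per the labels' protocols. The authors deposited spot intensity values on a linear scale, with array medians between 0.956 and 0.966. The sources used here do not name the software, background correction or flags. Intensities under the 5th percentile of positive values (0.0811) were set to it and log2 was taken, with no further normalization. Probes with at least 2 values per genotype and a mean above the 25th percentile were tested with limma 3.58.1 in R 4.3.3 (lmFit, eBayes with an intensity trend, genotype as the only term, 3 KO against 3 WT arrays), with Benjamini-Hochberg adjustment over 15062 probes (two-sided). The procedure was tested on simulated data. The brightest probe with 6 values stood for its gene. Where the lower genotype's mean lay under the 25th percentile limit, the fold was taken against that limit. Such a fold is a lower bound on the measured fold and not on the true change.

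Gene symbols came from GEO's annotation of the platform and can be outdated. The annotation gave 1 symbol for 15120 probes and several for 38, and it did not list 5131. Symbols were updated through Entrez identifiers in a RefSeq table (GRCm38.p6), where every member matched. The members and lists were chosen with earlier results of these data known. Described in full were called members changed at least 1.5-fold, up to 12 in each direction, the brightest member of each family, and up to 4 called genes of the list of cofactors and effectors with the largest change; 1 of these 4 is not reported here, and from the marker lists only counts and sums are given. Other members named with values were chosen after their values were seen. The number of arrays limits the precision. Same-numbered KO and WT arrays did not deviate together (r = -0.0208 to 0.00059 across probes), so no pairing was used.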

Additional observations from a re-analysis of the deposited data

How the results depend on the processing

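Of 19 called member genes, 14 kept their call and direction in every alternative setting that tested them, and Efna3, Plxna2, Sema6a, Unc5b and Unc50 lost it in at least 1 of the 14 settings. The members called were 10 higher and 9 lower, and 8 higher and 11 lower under cyclic loess normalization, where all probes were 2970 and 3028; without Unc50 and Unc5cl, a setting chosen after seeing the data, they were 9 and 9. Leaving out single arrays gave 7 to 13 higher and 7 to 9 lower, and over all tested probes 2824 to 4243 higher and 1976 to 3074 lower, against 3625 and 2596 with all arrays. With the replicate block, members were 11 higher and 7 lower and all probes 3453 and 2566; Epha6 was gained (adjusted p = 0.0398) and Sema6a and Unc5b were lost (adjusted p = 0.0675 and 0.0821). The median log2 change of the members was 0.16 with all arrays, 0.0675 under quantile normalization, 0.0947 under cyclic loess and 0.0887 to 0.195 when arrays were left out. The cause of these shifts was not tested. When arrays were left out, the uncalled changes of Plxnb2 and Ntng1 turned sign, with ranges of -0.0742 to 0.0633 and -0.238 to 0.0893, and neither was called there. Without a filter on dim probes, members were 10 higher and 8 lower. Dim probes near the limit limit the netrin, Slit1, Sema3 and ephrin-B results.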
